A study of Mus musculus with 46 samples.

Results

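Of the 53465 genes in the expression table, 10 belong to the ligands, receptors and antagonists of the TGF-beta family considered here, and each was found by its symbol. They are the ligand genes Tgfb1, Tgfb2, Tgfb3, Inhba and Bmp7, the receptor genes Tgfbr1, Tgfbr2 and Tgfbr3, and the antagonist genes Smad7 and Grem1. The study sorted proximal tubular (PT) cells (LTL+), macrophages (F4/80+), endothelial cells (CD31+) and stromal cells (PDGFRB+) from kidneys of wild-type male C57BL/6 mice aged 8 to 12 weeks. The mice had sham surgery, unilateral ureteric obstruction (UUO), or UUO reversed by reimplanting the ureter (rUUO). The methods state culls on day 2 and day 7 of UUO and 14 days after reversal, and the labels do not say which UUO day a sample is from. The values used came from 3 sham, 4 UUO and 3 rUUO samples of PT cells, 4, 4 and 3 of macrophages, 4, 3 and 4 of endothelial cells, and 4 of each surgery of stromal cells.

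TGF-beta ligands are secreted in a latent form bound to the extracellular matrix, and once released they bind the type II receptor, which activates the type I receptor and, through it, SMAD transcription factors. The pathway is known in the kidney for driving extracellular matrix synthesis by fibroblasts and pericytes after injury. Activin A, a dimer of the Inhba product, signals through related receptors. BMP7 acts on another SMAD branch and is made by the healthy tubule, gremlin binds and blocks BMPs, and SMAD7 is a feedback inhibitor inside the cell.

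Levels are given as FPKM, the fragments of a transcript per kilobase of its length, scaled to the mapped fragments of a sample, so that levels of different genes can be compared. Changes are differences in mean log2(FPKM + 1) with their standard errors (SE), and a change was called at a Benjamini-Hochberg adjusted p below 0.05 by limma, adjusted over every gene with a mean of at least 1 FPKM in that fit. The sum of FPKM per sample ranged from 586929 to 884982, and sequencing depth relative to the median sample ranged from 0.593 to 1.61. Mitochondrial genes took 58.7% to 75.6% of the FPKM in PT samples and 20.2% to 45.8% in the others. The median gene was 0.50 higher on the log2 scale in UUO than in sham PT cells and 0.27 lower in rUUO than in UUO PT cells, whereas in the other populations the median of a surgery comparison lay between -0.07 and 0.19. In each population the summed level of its own 6 markers was the highest of the 7 marker lists, with 624 to 2526 FPKM in PT cells, 3791 to 7960 in macrophages, 2259 to 3131 in endothelial cells and 1319 to 7303 in stromal cells. Markers of other cells were present as well. The distal nephron and collecting duct list reached 941 FPKM in endothelial and 653 FPKM in stromal samples, and the podocyte list 629 and 283 FPKM. Fewer cells of a kind and less RNA per cell cannot be told apart in such bulk samples.

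Positions of the gene bodies, exons and introns included, are those of GRCm38. Tgfb1 is at chr7:25687002-25705077 on the plus strand, Tgfb2 at chr1:186622792-186705989 on the minus strand, and Tgfb3 at chr12:86056745-86079041 on the minus strand. Inhba is at chr13:16011851-16031621 on the plus strand and Bmp7 at chr2:172868012-172940321 on the minus strand. Tgfbr1 is at chr4:47353222-47414931 on the plus strand, Tgfbr2 at chr9:116084293-116175360 on the minus strand, and Tgfbr3 at chr5:107106570-107289629 on the minus strand. Grem1 is at chr2:113746164-113758646 on the minus strand.

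Inhba, Tgfb2, Tgfb3, Tgfbr1 and Tgfbr2 rose together in stromal cells, as described below. No RefSeq promoter window was at hand for Tgfb3. The promoters of the others are printed so that 2 ligand genes can be set beside 2 receptor genes, and so few genes test no difference between ligands and receptors. Each line is the 250 bases before a RefSeq start site (GRCm38.p6), 5′ to 3′ on the strand of the gene, with matches to searched motifs in capitals.
Inhba, chr13:16011601-16011850, plus strand: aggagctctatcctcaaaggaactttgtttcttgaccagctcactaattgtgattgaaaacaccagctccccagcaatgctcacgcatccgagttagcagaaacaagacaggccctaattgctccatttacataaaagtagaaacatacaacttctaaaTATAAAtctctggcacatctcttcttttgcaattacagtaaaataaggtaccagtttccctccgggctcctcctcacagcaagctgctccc
Tgfb2, chr1:186705990-186706239, minus strand: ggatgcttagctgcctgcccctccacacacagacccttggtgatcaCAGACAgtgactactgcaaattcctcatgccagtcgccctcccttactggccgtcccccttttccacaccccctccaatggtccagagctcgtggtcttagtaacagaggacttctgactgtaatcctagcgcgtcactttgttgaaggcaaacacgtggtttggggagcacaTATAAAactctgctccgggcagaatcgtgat
Tgfbr1, chr4:47352972-47353221, plus strand: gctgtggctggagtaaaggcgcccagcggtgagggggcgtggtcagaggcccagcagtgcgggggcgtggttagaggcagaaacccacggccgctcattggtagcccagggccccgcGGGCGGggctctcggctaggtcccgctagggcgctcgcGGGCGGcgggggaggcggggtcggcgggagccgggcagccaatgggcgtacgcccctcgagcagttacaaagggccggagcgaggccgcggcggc
Tgfbr2, chr9:116175364-116175613, minus strand: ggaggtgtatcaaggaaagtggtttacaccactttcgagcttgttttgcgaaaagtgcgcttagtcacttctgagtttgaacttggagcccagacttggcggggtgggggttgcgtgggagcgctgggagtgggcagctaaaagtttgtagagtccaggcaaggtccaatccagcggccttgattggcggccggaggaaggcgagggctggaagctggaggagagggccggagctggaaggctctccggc

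The motifs were the TATA box TATAAA, the GC box GGGCGG, the CAGA box CAGACA, the AP-1 site TGANTCA and the cAMP response element TGACGTCA, each on both strands, and no matches overlapped in these 4 windows. Both ligand promoters printed hold 1 TATAAA, which in Tgfb2 spans bases -31 to -26 and in Inhba bases -91 to -86 from the start site. Neither receptor promoter holds it. The Tgfbr1 promoter printed holds 2 GC boxes, Tgfb2 holds 1 CAGA box, and the Tgfbr2 window holds no match to any of the 5 motifs. Tgfbr1 has a second RefSeq start, whose window (chr4:47385966-47386215, not printed) holds 1 CAGA box, at bases -203 to -198, and none of the other motifs. Of the 32851 RefSeq windows of this length, 12.4% hold TATAAA, 32.7% GGGCGG, 17.1% CAGACA, 6.75% TGANTCA and 1.55% TGACGTCA. Tgfb1 has 5 GC boxes and Grem1 3 in the same window, with no match to the other motifs.

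In uninjured kidney the members were spread unevenly over the 4 populations. Tgfb1, the most widely made of the 3 TGF-beta ligands, was highest in macrophages with 85.8 ± 10.1 FPKM (SD, n = 4), followed by endothelial cells with 56.1 ± 9.52 FPKM and stromal cells with 37.2 ± 6.07 FPKM, and it was near the floor in PT cells with 0.823 ± 0.235 FPKM (SD, n = 3). All 6 pairs of populations differed for Tgfb1 (limma, adjusted p between 2.42e-13 and 0.0248), although the endothelial and stromal samples overlapped. Tgfb2 was highest in endothelial cells (12.3 ± 4.22 FPKM), then in stromal cells (4.12 ± 0.723 FPKM), and did not pass the test between PT cells and macrophages, where means were 0.143 and 0.205 FPKM. Tgfb3 was highest in stromal cells (13.9 ± 4.19 FPKM), and macrophages, endothelial cells and PT cells followed in that order, at 2.69, 1.23 and 0.223 FPKM. Inhba was likewise highest in stromal cells (6.99 ± 1.94 FPKM), and its means of 0.36 to 0.908 FPKM in the other populations did not pass the test among themselves. Bmp7, a tubular survival factor, had 3.97 ± 1.17 FPKM in PT cells and 2.93 ± 1.04 FPKM in stromal cells, levels that did not pass the test against each other (adjusted p = 0.355), and 1.17 and 0.258 FPKM in endothelial cells and macrophages. Distal nephron and collecting duct markers summed to 415 to 653 FPKM in stromal, 187 to 941 FPKM in endothelial and 31.8 to 48.8 FPKM in PT sham samples. Podocyte markers summed to 169 to 283 FPKM in stromal and 294 to 629 FPKM in endothelial sham samples. The part of such transcripts in the sham levels of the members was not tested.

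The receptors had a different order. Tgfbr1, the type I receptor, had 159.8 ± 16.5 FPKM in sham macrophages against 7.85 ± 0.744 FPKM in stromal cells, 5.55 ± 2.05 FPKM in endothelial cells and 3.07 ± 0.518 FPKM in PT cells, and its log2 level in macrophages was 4.18 (SE 0.22) above that in stromal cells. The stromal and endothelial levels did not pass the test against each other (adjusted p = 0.124). Tgfbr2, the type II receptor that binds the ligand, was at 112 ± 4.54 FPKM in macrophages and 83.3 ± 20.4 FPKM in endothelial cells, a pair that missed the threshold (adjusted p = 0.0681), and at 43.1 ± 9.95 FPKM in stromal and 4.73 ± 0.602 FPKM in PT cells. Tgfbr3, betaglycan, a co-receptor that presents ligand to the type II receptor, was instead highest in stromal cells (61.0 ± 8.47 FPKM) and endothelial cells (27.3 ± 5.0 FPKM). It had 2.70 and 2.23 FPKM in PT cells and macrophages, which did not pass the test against each other. Smad7 was highest in endothelial cells (18.1 ± 3.85 FPKM), then stromal cells (7.87 ± 1.11 FPKM), and its 2.40 and 1.45 FPKM in macrophages and PT cells did not pass the test between them. Grem1 reached at most 0.63 FPKM in any sham sample and was not tested.

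Over the 9 members tested in sham, 44 of 54 member-by-pair differences were called. The count includes the stromal calls of Inhba, which passed the filter of 1 FPKM only through stromal cells, with means of 0.36 to 0.908 FPKM elsewhere. It also pools pairs of populations in which unlike shares of all genes were called. Of all genes, 64.9% were called between PT cells and macrophages, 62.3% between PT and endothelial cells and 67.6% between PT and stromal cells. The shares were 45.7% between macrophages and endothelial cells, 48.1% between macrophages and stromal cells and 24.2% between endothelial and stromal cells. In PT cells the median gene was 0.90 to 1.06 lower on the log2 scale than in the other populations, beside the mitochondrial share given above. The part of that share in the PT differences was not tested.

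**Figure D1:**
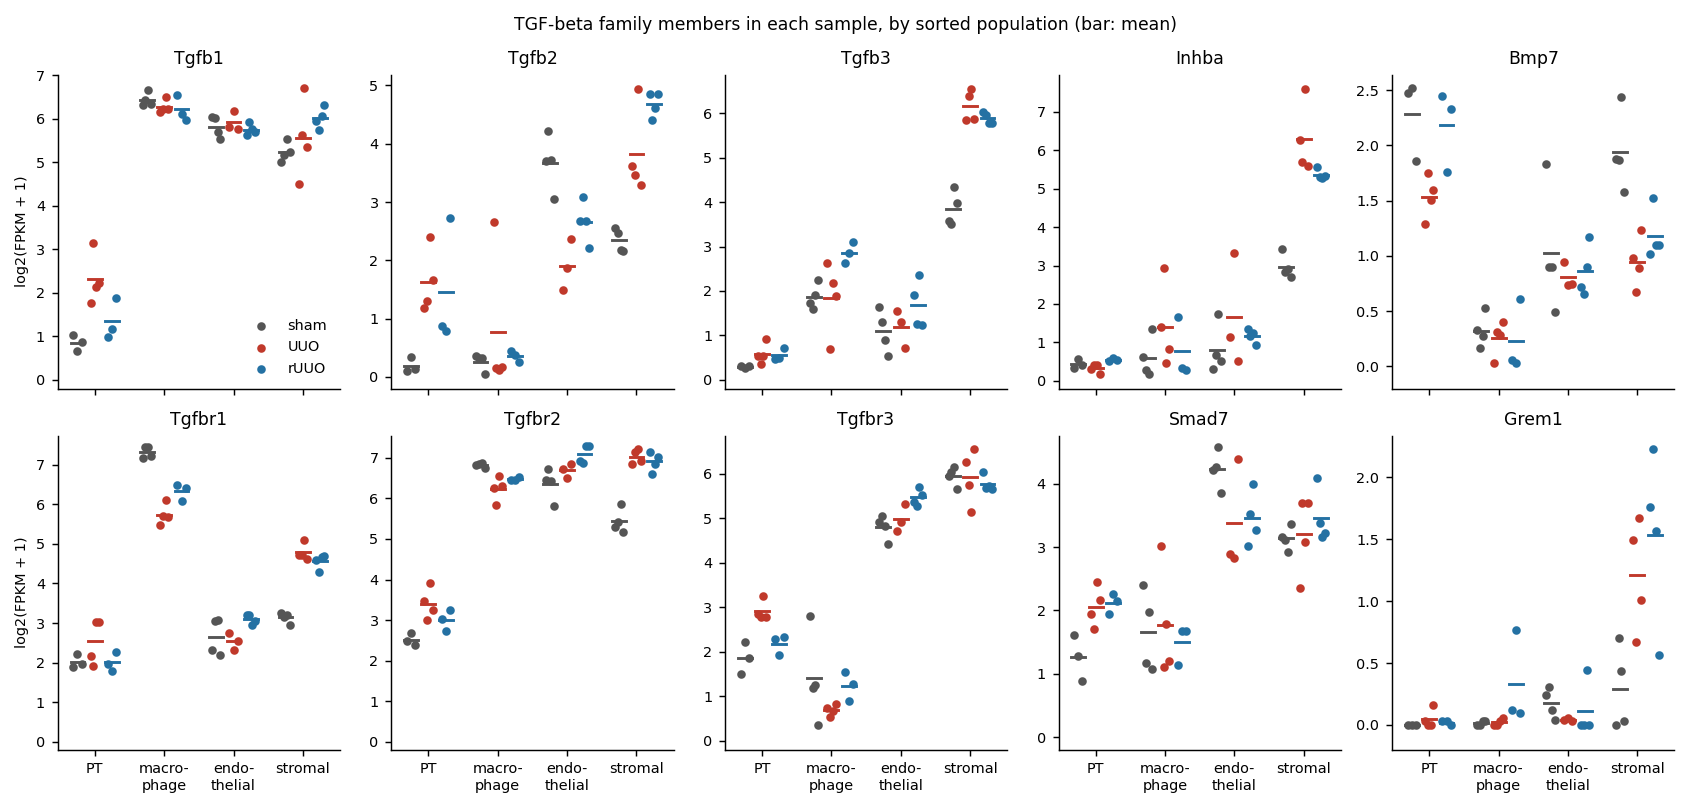
Level of each member as log2(FPKM + 1) in each sample (points; bars are group means) of the 4 sorted populations after sham surgery (grey), UUO (red) and rUUO (blue), with a separate vertical scale in each panel. Stromal Tgfb3 and Inhba lie far above sham in all 8 UUO and rUUO samples, and macrophage Tgfbr1 lies below sham in all 7.

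Values of single samples are given below in the order of their replicate numbers. Among the ligands, Inhba, Tgfb3 and Tgfb2 rose in stromal cells after UUO. Stromal Inhba, the activin A subunit gene, had 9.83, 6.16, 6.51 and 5.46 FPKM in the sham samples, 75.8, 50.5, 192.6 and 47.2 FPKM in the UUO samples and 45.9, 38.4, 37.8 and 39.3 FPKM in the rUUO samples. Every obstructed and reversed sample lay above every sham sample, and UUO replicate 3 stood well above the other UUO samples. The rise was 3.32 (SE 0.35, adjusted p = 4.09e-06) for UUO against sham and 2.40 (SE 0.35, adjusted p = 0.000154) for rUUO against sham. Without UUO replicate 3 the first of these was 2.88 and still called. Between rUUO and UUO all 4 reversed samples were below all 4 obstructed ones, with a log2 difference of -0.92 (SE 0.35) that missed the threshold (adjusted p = 0.153). These comparisons share the sham or the UUO samples and are not independent of each other.

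Markers moved in the same stromal samples as the members did. The 6 stromal markers summed to 1319 to 2206 FPKM after sham surgery, 4271 to 7303 FPKM after UUO and 3771 to 4665 FPKM after rUUO, and with UUO 3 of them were called higher and 2 lower. Of the markers of other cells, 4 of 5 PT, 5 of 6 podocyte, 3 of 6 endothelial and 6 of 6 distal nephron and collecting duct markers were called lower with UUO. Of the macrophage markers 1 of 5 was called lower. Other leukocyte markers went the other way, with 1 of 2 tested called higher. Their sums were 0.03 to 0.65 FPKM in sham and 5.69 to 53.8 FPKM in UUO. The part of these shifts in the stromal rises of Inhba, Tgfb2, Tgfb3, Tgfbr1 and Tgfbr2 was not tested.

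Stromal Tgfb3 had 10.9, 10.3, 19.4 and 14.8 FPKM after sham surgery, 56.4, 83.4, 93.3 and 57.6 FPKM after UUO and 64.2, 61.8, 54.3 and 54.1 FPKM after rUUO. The sham samples did not overlap with either other group, while UUO and rUUO overlapped. It rose by 2.32 (SE 0.23, adjusted p = 2.23e-06) with UUO and stood 2.04 (SE 0.23, adjusted p = 1.41e-05) above sham in rUUO. Stromal Tgfb2 had 4.90, 4.57, 3.54 and 3.47 FPKM in sham, 11.3, 10, 29.8 and 8.85 FPKM in UUO and 28.0, 20.3, 23.3 and 27.9 FPKM in rUUO. Here the reversed samples were the higher group by mean, although UUO replicate 3 exceeded all of them. The change against sham was 1.49 (SE 0.32, adjusted p = 0.00253) in UUO and 2.34 (SE 0.32, adjusted p = 9.11e-05) in rUUO. Between rUUO and UUO it was 0.85 (SE 0.32, adjusted p = 0.15), and without UUO replicate 3 it was 1.22 and called (adjusted p = 0.00963).

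Stromal Tgfb1 had 31.3, 34.9, 45.6 and 36.8 FPKM in sham, 21.7, 48.1, 104.0 and 39.9 FPKM in UUO and 60.5, 52.9, 65.7 and 78.6 FPKM in rUUO. The UUO samples spanned the sham range on both sides, with a change of 0.31 (SE 0.33, adjusted p = 0.537), and the rUUO samples were all above the sham samples, with a change of 0.78 (SE 0.33) that was not called (adjusted p = 0.133). Without stromal UUO replicate 3 the rUUO change was called (adjusted p = 0.0323), as it was without UUO replicate 1 (adjusted p = 0.0494). The makeup of the ligand transcripts within stromal samples is a further description. Of the summed FPKM of the 3 TGF-beta ligands, Tgfb1 made up 66.4% to 70.1% in the sham samples, 24.3% to 45.8% after UUO and 39.2% to 49.0% after rUUO. Tgfb3 made up 20.7% to 28.3%, 41.1% to 63.1% and 33.7% to 45.8%, so neither share overlapped between sham and the other groups. Such shares within a sample do not depend on scaling between samples. The 3 ligands together had 47.2 to 68.5 FPKM after sham surgery, 89.5 to 227 FPKM after UUO and 135 to 160.7 FPKM after rUUO.

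**Figure D2:**
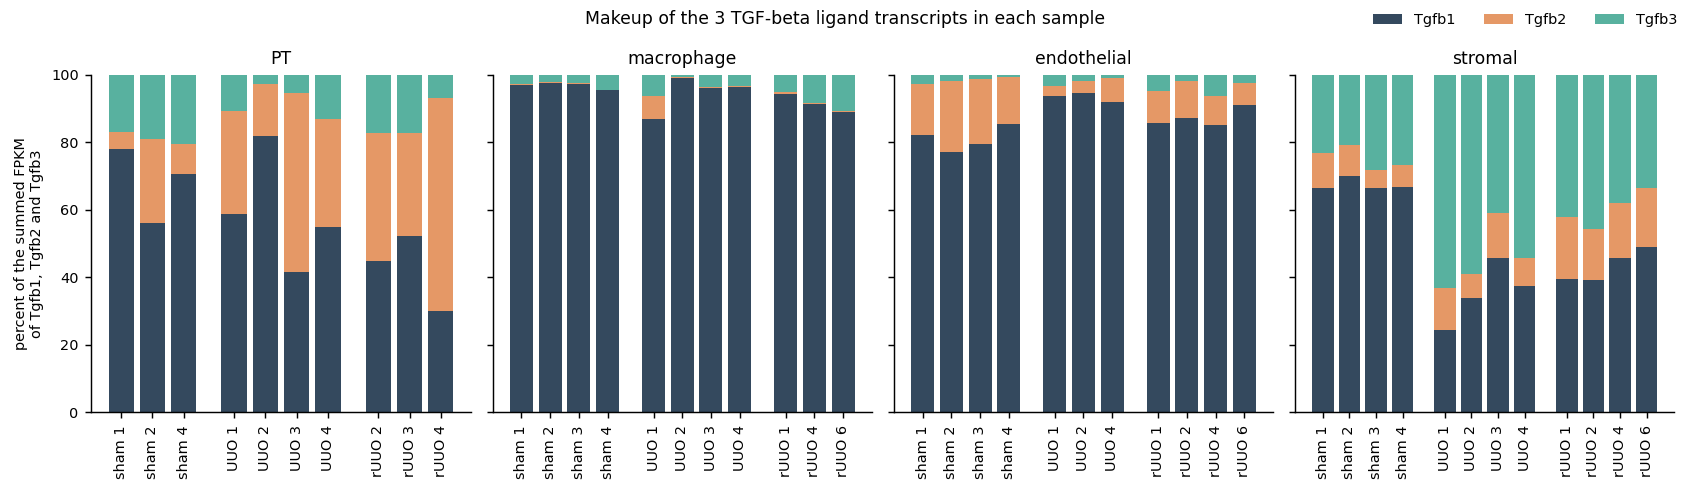
Percent of the summed FPKM of Tgfb1 (dark), Tgfb2 (orange) and Tgfb3 (green) in each sample, 1 bar per sample, by population and surgery. Macrophages are almost wholly Tgfb1 (86.9% to 99.0% over all 11 samples), whereas stromal samples go from mostly Tgfb1 in sham to a larger Tgfb3 share after UUO and rUUO.

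Bmp7 was the only member called lower in stromal cells after UUO. Its levels were 2.68, 2.64, 4.41 and 1.98 FPKM in sham, 0.98, 0.59, 0.85 and 1.36 FPKM in UUO and 1.03, 1.87, 1.14 and 1.14 FPKM in rUUO, and the sham samples were above all others. The change was -0.99 (SE 0.32, adjusted p = 0.0321) for UUO and -0.75 (SE 0.32, adjusted p = 0.13) for rUUO. The call was lost without any 1 of sham replicates 1, 2 and 3 or UUO replicates 1, 2 and 3 (adjusted p between 0.0523 and 0.0994). The summed level of 6 distal nephron and collecting duct markers was 415 to 653 FPKM in stromal sham samples, against 30.6 to 65.7 FPKM with UUO and 56.8 to 103 FPKM with rUUO, with all 6 markers called lower in both. The part of these tubular transcripts in the Bmp7 difference was not tested. The call was also lost with quantile normalization (-0.74, adjusted p = 0.102) and with the replicate block.

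In PT cells Tgfb1 and Tgfb2 rose from low levels. PT Tgfb1 had 1.06, 0.59 and 0.82 FPKM in sham, 2.42, 7.91, 3.36 and 3.69 FPKM in UUO and 0.99, 1.25 and 2.68 FPKM in rUUO. All UUO samples were above all sham samples and rUUO lay between, overlapping both. The change was 1.46 (SE 0.36, adjusted p = 0.00766) for UUO and 0.49 (SE 0.39, adjusted p = 0.514) for rUUO. PT Tgfb2 had 0.07, 0.26 and 0.10 FPKM in sham, 1.27, 1.47, 4.26 and 2.16 FPKM in UUO and 0.84, 0.73 and 5.6 FPKM in rUUO. No sham sample reached the lowest of the others, and the gene passed the filter on low values only through UUO and rUUO. It rose by 1.45 (SE 0.46, adjusted p = 0.0271) with UUO, a call that was lost without sham replicate 1, 2 or 4 or UUO replicate 3 or 4 (adjusted p between 0.0515 and 0.0796). PT Bmp7 had 4.57, 4.72 and 2.62 FPKM in sham, 1.44, 2.36, 1.84 and 2.02 FPKM in UUO and 4.46, 2.39 and 4.03 FPKM in rUUO. Its UUO samples were below both other groups without overlap, but the change against sham of -0.75 (SE 0.30) missed the threshold (adjusted p = 0.067). It was called lower after rescaling without mitochondrial genes (-1.07, adjusted p = 0.0232), without a trend in the prior variance (adjusted p = 0.0494) and with 1 fit for all populations (adjusted p = 0.0314). Tgfb3 and Inhba stayed below the filter in PT cells, with at most 0.89 and 0.52 FPKM.

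The PT values need the scale beside them, because most called genes were higher in UUO. Of the calls between UUO and sham PT cells, 85% were higher, against 70.2% after rescaling without mitochondrial genes and 51.8% after quantile normalization, and under the latter the changes of Tgfb1 (0.85, adjusted p = 0.122) and Tgfb2 (1.05, adjusted p = 0.112) were no longer called while Bmp7 was called lower (-1.31, adjusted p = 0.00305). The summed macrophage markers were 14.1 to 28.0 FPKM in PT sham and 13.98 to 36.1 FPKM in PT UUO, and 0 of 4 tested were called by limma (0 at an unadjusted p below 0.05). The 6 stromal markers summed to 13.7 to 16.8 FPKM and 22.5 to 38.7 FPKM, with 2 of 3 tested called higher, and the 6 distal nephron markers to 31.8 to 48.8 FPKM and 166.4 to 240.6 FPKM, with 2 of 6 called higher. The 6 PT markers summed to 1938 to 2526 FPKM and 624 to 1036 FPKM, with 5 called lower. Their part in the PT changes was not tested.

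Endothelial Tgfb2 moved the other way. It had 12.04, 17.6, 12.2 and 7.28 FPKM in sham, 1.80, 2.66 and 4.13 FPKM in UUO and 5.35, 7.50, 5.35 and 3.63 FPKM in rUUO. The UUO samples were all below the sham samples, and rUUO overlapped both. It fell by 1.77 on the log2 scale (SE 0.35, adjusted p = 0.0145) with UUO, which missed the threshold without UUO replicate 1 (adjusted p = 0.0781), and its change in rUUO of -1.02 (SE 0.33) was not called (adjusted p = 0.15). The distal nephron and collecting duct markers summed to 187 to 941 FPKM in endothelial sham samples, against 75.4 to 236 FPKM with UUO and 70.0 to 244 FPKM with rUUO. With UUO 2 of these 6 markers were called lower, as was 1 of 6 podocyte markers, whose median change was -0.97 and whose sum was 294 to 629 FPKM in sham and 319 to 331 FPKM in UUO. The part of both lists in the Tgfb2 change was not tested. Endothelial Tgfb1 ranged from 45.2 to 71.5 FPKM over all 11 samples, with changes of 0.10 and -0.07 against sham that were not called. Tgfb3 and Inhba were at 0.44 to 4.09 FPKM and 0.24 to 9.06 FPKM there, and the 9.06 FPKM of Inhba was UUO replicate 2 alone, with the other 10 samples at or below 2.37 FPKM.

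Macrophage ligand levels showed no called change. Tgfb1 had 78.2, 84.8, 100.3 and 80.0 FPKM in sham, 69.8, 73.3, 89.1 and 74.1 FPKM in UUO and 93.1, 68.3 and 62.1 FPKM in rUUO, overlapping in every comparison. The change with UUO was -0.16 (SE 0.17, adjusted p = 0.663). Macrophage Tgfb3 was 2.00 to 3.73 FPKM in sham and 5.18 to 7.63 FPKM in rUUO without overlap, a change of 1.004 (SE 0.42, adjusted p = 0.25). Tgfb2 was below the filter, with 5.29 FPKM in UUO replicate 1 and at most 0.36 FPKM in the other 10 samples, and Inhba, which passed the filter through single samples, reached 6.67 FPKM in UUO replicate 2 alone. Bmp7 was at most 0.53 FPKM in macrophages.

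Tgfbr1 was called lower in macrophages and higher in stromal cells after UUO. Macrophage Tgfbr1 had 142, 173.6, 174 and 149 FPKM in sham, 43.5, 51.0, 67.7 and 49.9 FPKM in UUO and 88.3, 67.2 and 83.9 FPKM in rUUO. Every sample after UUO or rUUO was below every sham sample, and rUUO replicate 4 fell within the UUO range. Tgfbr1 fell by 1.59 (SE 0.17, adjusted p = 0.000142) with UUO and was also lower than sham in rUUO (log2 change -0.996, SE 0.19, adjusted p = 0.00938). The rUUO call was lost without rUUO replicate 4 (-0.88, adjusted p = 0.0646), and the rise from UUO to rUUO of 0.59 was not called (adjusted p = 0.445). Stromal Tgfbr1 had 8.48, 7.94, 8.18 and 6.78 FPKM in sham, 25.4, 25.5, 33.5 and 23.5 FPKM in UUO and 23.2, 18.5, 24.2 and 24.9 FPKM in rUUO. In these cells every UUO and rUUO sample was above every sham sample. Tgfbr1 rose by 1.65 (SE 0.20, adjusted p = 1.70e-05) with UUO and was 1.42 (SE 0.20, adjusted p = 0.00012) above sham in rUUO.

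Stromal Tgfbr2 had 38.1, 42.1, 57.3 and 34.8 FPKM in sham, 113.9, 140.8, 147.9 and 120.1 FPKM in UUO and 141, 96.9, 115 and 129.6 FPKM in rUUO. Sham stood apart from both other groups, which overlapped. The change was 1.595 (SE 0.18, adjusted p = 1.18e-05) in UUO and 1.48 (SE 0.18, adjusted p = 4.48e-05) in rUUO. Macrophage Tgfbr2 had 111.6, 113.5, 116.8 and 106 FPKM in sham, 75.0, 56.3, 92.6 and 78.7 FPKM in UUO and 87.4, 86.5 and 90.8 FPKM in rUUO. Both the UUO and the rUUO samples were below sham without overlap, with a change of -0.58 (SE 0.17, adjusted p = 0.0608) for UUO that missed the threshold. It was called without UUO replicate 3 (adjusted p = 0.0428). The ratio of Tgfbr2 to Tgfbr1 FPKM within macrophage samples was 0.654 to 0.785 after sham surgery, 1.10 to 1.73 after UUO and 0.990 to 1.29 after rUUO. In stromal samples, where both rose with UUO, it was 4.49 to 7.01, 4.41 to 5.51 and 4.74 to 6.09.

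Beside the macrophage receptors, the 6 macrophage markers summed to 6208 to 7960 FPKM after sham surgery, 3791 to 6698 FPKM after UUO and 5185 to 6634 FPKM after rUUO. For UUO against sham, 0 of the 6 were called by limma and 2 had an unadjusted p below 0.05. The 6 markers of other leukocytes summed to 5.24 to 9.88 FPKM with sham surgery, 47.4 to 139.4 FPKM with UUO and 10.9 to 49.2 FPKM with rUUO, with 4 of 6 called higher in UUO. The PT markers in the macrophage samples summed to 86.0 to 119 FPKM, 18.2 to 34.2 FPKM and 15.3 to 19.01 FPKM in the same order, with 4 of 5 called lower in UUO and 5 of 5 in rUUO, and 2 of 6 distal nephron and collecting duct markers were called lower in UUO. The part of these markers in the Tgfbr1 difference was not tested, and the labels do not separate resident macrophages from recruited ones.

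Tgfbr3 did not follow the other receptors in stromal cells. It had 60.5, 64.3, 69.6 and 49.6 FPKM in sham, 76.1, 52.9, 34.2 and 92.3 FPKM in UUO and 64.5, 50, 51.9 and 49.0 FPKM in rUUO, overlapping throughout. The changes were -0.02 (SE 0.25, adjusted p = 0.969) and -0.17 (SE 0.25, adjusted p = 0.714). The ratio of Tgfbr3 to Tgfbr2 in stromal samples was 1.22 to 1.59 after sham surgery, 0.232 to 0.769 after UUO and 0.379 to 0.516 after rUUO, so that betaglycan was the more abundant of the 2 transcripts in each sham sample and the less abundant in every other sample. In PT cells Tgfbr3 had 1.82, 3.63 and 2.64 FPKM in sham, 6.25, 5.86, 8.55 and 5.89 FPKM in UUO and 3.87, 2.80 and 4.01 FPKM in rUUO, and it rose by 1.06 (SE 0.28, adjusted p = 0.00987) with UUO. This call was lost without sham replicate 1 (adjusted p = 0.0527) and under quantile normalization (0.46, adjusted p = 0.222).

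PT Tgfbr2 had 4.59, 5.39 and 4.21 FPKM in sham, 10, 7.00, 14 and 8.44 FPKM in UUO and 7.10, 5.6 and 8.50 FPKM in rUUO, and both later groups lay above sham. The change was 0.89 (SE 0.27, adjusted p = 0.022) with UUO, against the median of 0.50 over all genes. It was not called without sham replicate 1, sham replicate 4 or UUO replicate 3 (adjusted p between 0.0615 and 0.0777), nor after rescaling without mitochondrial genes (0.66, adjusted p = 0.084). Under quantile normalization (0.33, adjusted p = 0.364) and with the replicate block the call was also lost. PT Tgfbr1 ranged from 2.43 to 7.21 FPKM with no called change. In endothelial cells Tgfbr2 had 87.4, 104.9, 85.0 and 55.7 FPKM in sham, 105, 89.7 and 114.7 FPKM in UUO and 120.9, 116.7, 157 and 155.5 FPKM in rUUO. The rUUO samples were above all the others, with a change against sham of 0.74 (SE 0.20, adjusted p = 0.0822) that was called only when sham replicate 2 was left out (adjusted p = 0.0489) or when all populations shared a fit (adjusted p = 0.0182). Endothelial Tgfbr3 had 20.3 to 32.0 FPKM in sham and 37.9 to 50.7 FPKM in rUUO without overlap, with a change of 0.66 (SE 0.21, adjusted p = 0.146).

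**Figure D3:**
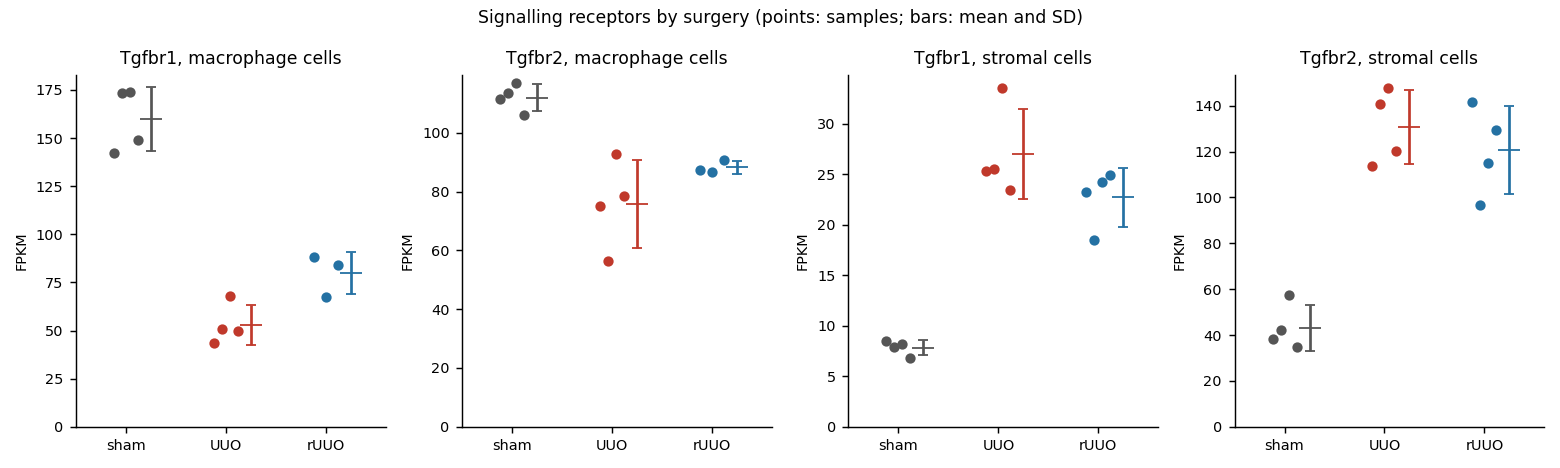
FPKM of Tgfbr1 and Tgfbr2 in macrophages and stromal cells after sham surgery, UUO and rUUO, with 1 point per sample and the mean and SD beside the points. Both genes are lower than sham in every UUO and rUUO sample of macrophages and higher than sham in every UUO and rUUO sample of stromal cells.

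Of the antagonists, Smad7 was not called in any surgery comparison in the fits as described. In PT cells it had 2.07, 1.44 and 0.84 FPKM in sham, 2.83, 2.27, 4.44 and 3.46 FPKM in UUO and 2.86, 3.81 and 3.42 FPKM in rUUO. The UUO and rUUO samples were all above sham, with a change of 0.80 (SE 0.30, adjusted p = 0.0528) for UUO and 0.86 (SE 0.32, adjusted p = 0.128) for rUUO, and the first was called without UUO replicate 2 (adjusted p = 0.0417), with a pseudocount of 0.1 (1.15, adjusted p = 0.0437), after rescaling to equal sums (0.88, adjusted p = 0.046) and without a trend in the prior variance (adjusted p = 0.0365). In endothelial cells it had 17.7, 18.3, 22.9 and 13.5 FPKM in sham, 6.44, 6.10 and 20.1 FPKM in UUO and 7.14, 10.5, 15.0 and 8.62 FPKM in rUUO. UUO replicate 4 was at the sham level while the other 2 UUO samples were below every sham sample. The change was -0.86 (SE 0.37, adjusted p = 0.32), and without that sample it was -1.37 and called (adjusted p = 0.0444). Stromal Smad7 ranged from 4.13 to 16.0 FPKM with no order by surgery.

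Grem1, the BMP antagonist gremlin, was the lowest of the members. Stromal cells had 0, 0.63, 0.35 and 0.02 FPKM in sham, 1.82, 0.59, 2.18 and 1.01 FPKM in UUO and 2.39, 3.68, 1.97 and 0.48 FPKM in rUUO, where 0 is the value as listed. The groups overlapped, and the gene passed the filter only through UUO and rUUO. It was called higher in rUUO than in sham by a narrow margin (1.24, SE 0.41, adjusted p = 0.0491), and the call was lost in 11 of the 12 fits that left out a stromal sample (adjusted p up to 0.147), all but the one without rUUO replicate 6. It was also lost with no filter on low values (adjusted p = 0.0809) and after rescaling without mitochondrial genes (adjusted p = 0.0675). The change with UUO against sham was 0.92 (SE 0.41, adjusted p = 0.114), and it was called with a pseudocount of 0.1 (adjusted p = 0.0467) and with quantile normalization (adjusted p = 0.0323). The largest Grem1 value in the other 3 populations was 0.70 FPKM, in macrophage rUUO replicate 4.

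Counted by comparison, members were called most often in stromal cells. For UUO against sham, 6 of 10 tested members were called in stromal cells (5 higher and 1 lower), beside 26.4% of all genes, and 4 of 7 in PT cells (all higher), beside 32.8%. There was 1 of 7 in macrophages (Tgfbr1, lower), beside 4.99%, and 1 of 8 in endothelial cells (Tgfb2, lower), beside 1.98%. For rUUO against sham, 6 of 10 were called in stromal cells (all higher), beside 17.2%, and 1 of 7 in macrophages (Tgfbr1, lower), beside 3.44%. None of 7 was called in PT cells, beside 7.46%, and none of 8 in endothelial cells, beside 1.77%, where 2 and 4 members had an unadjusted p below 0.05 in limma, beside 21.5% and 14.1% of all genes. The PT count includes Tgfb1 and Tgfb2 and the stromal count of rUUO includes Grem1, which had means below the filter of 1 FPKM in sham and passed it through the groups where they were higher. With no filter on low values the calls of PT Tgfb2 (adjusted p = 0.11) and stromal Grem1 (adjusted p = 0.0809) were lost.

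For rUUO against UUO limma called no member in any population. At an unadjusted p below 0.05 there were 3 of 7 in PT cells (Tgfb1, Bmp7 and Tgfbr3), 2 of 7 in macrophages (Tgfb3 and Tgfbr1), 1 of 8 in endothelial cells (Tgfb2) and 2 of 10 in stromal cells (Tgfb2 and Inhba). Of all genes 21.4% in PT cells, 7.09% in macrophages, 10.2% in endothelial cells and 19.8% in stromal cells had an unadjusted p below 0.05, so that 2 of 10 in stromal cells and 1 of 8 in endothelial cells were near the share of all genes. At the adjusted threshold 3.83% of all genes were called in PT cells, 0% in macrophages, 0.0597% in endothelial cells and 4.17% in stromal cells. The share of called genes that were higher depended on the scaling. Of the stromal calls 50.8% were higher with UUO than with sham, 70.8% with rUUO than with UUO and 67.6% with rUUO than with sham, against 38.8%, 61.7% and 49.8% after rescaling without mitochondrial genes and 50.3%, 54% and 51.9% with quantile normalization. Of the endothelial calls 64.5% were higher with UUO and 79.3% with rUUO, both against sham, compared with 48.2% and 77.2%, and 54.7% and 60.7%, under the 2 scalings. The few endothelial calls between rUUO and UUO (8, 9 and 3) were higher in 75%, 77.8% and 33.3%. Of the PT calls 17.6% were higher with rUUO than with UUO and 87.3% with rUUO than with sham, compared with 51.1% and 78.1%, and 59.3% and 69.6%. The directions of the member changes called here held under each of these scalings. Members that were tested had to pass the filter, so these counts do not cover Tgfb3, Inhba and Grem1 in PT cells, Tgfb2, Bmp7 and Grem1 in macrophages, or Bmp7 and Grem1 in endothelial cells.

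**Figure D4:**
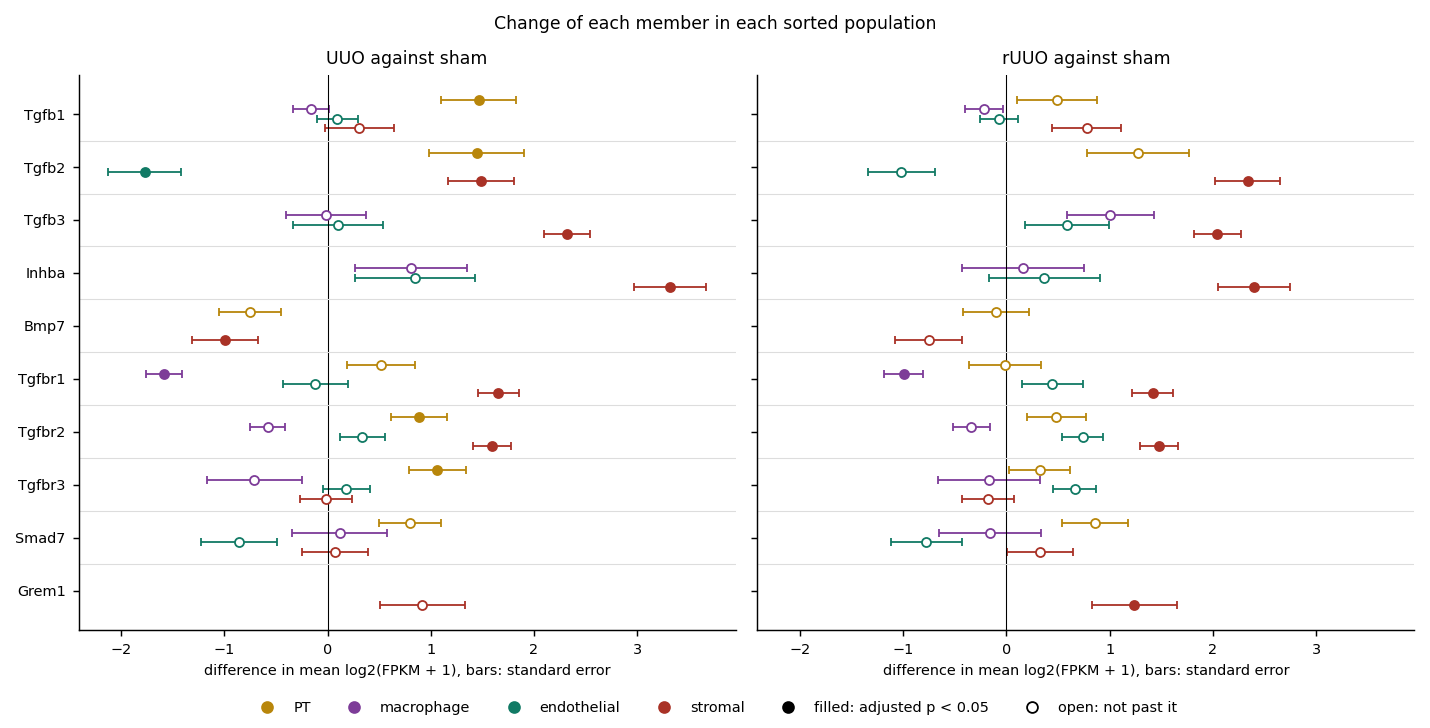
Difference in mean log2(FPKM + 1) of each tested member for UUO against sham (left) and rUUO against sham (right) in the 4 populations, with standard errors; filled points passed an adjusted p of 0.05 and open points did not. Tgfb2 is higher than sham in stromal cells and lower in endothelial cells after UUO, and Tgfbr1 is higher in stromal cells and lower in macrophages.

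Whether a change differed between populations was tested directly, with an F test over all 44 samples. For UUO against sham 7 of 9 members differed between populations, beside 33.5% of all genes, with the smallest adjusted p for Tgfbr1 (1.21e-09) and Tgfbr2 (2.94e-07), followed by Tgfb3 (6.37e-05), Tgfb2 (0.000127), Inhba (0.000507), Tgfb1 (0.00856) and Tgfbr3 (0.0133). Bmp7 (adjusted p = 0.0907) and Smad7 (adjusted p = 0.0954) missed the threshold. For rUUO against sham 5 of 9 differed, beside 15.1% of all genes, namely Tgfbr1 (4.16e-06), Tgfbr2 (6.95e-05), Tgfb2 (0.000283), Tgfb3 (0.0168) and Inhba (0.0257). In these tests the PT changes of Tgfb3 and Inhba rest on values near the floor, at most 0.89 and 0.52 FPKM. With a pseudocount of 0.1, 3 members differed for rUUO against sham. For rUUO against UUO only Tgfbr1 differed (adjusted p = 0.04), beside 5.57% of all genes, and in 15 of the 44 fits that left out a sample no member was called. The labels do not say whether populations with the same number came from 1 mouse, and the F test and the sham comparisons treat them as independent.

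Other genes of the pathway were taken as lists, chosen with earlier results of these data known. In stromal cells, 8 of 13 tested genes of latency and activation were called higher and 1 lower with UUO, with a list median of 0.69 on the log2 scale against -0.07 over all genes, of which 26.4% were called in either direction. Of the TGF-beta-responsive genes 8 of 14 were higher and 1 lower (median 1.48). The largest changes called were those of Timp1, a metalloproteinase inhibitor, at 5.56 (SE 0.47, adjusted p = 6.08e-07; 9.78 FPKM in sham and 612 FPKM in UUO on average), and Postn, the matrix protein periostin, at 4.95 (SE 0.33, adjusted p = 7.02e-08; 15.5 and 508 FPKM). In the activin branch 3 of 6 were higher, among receptor partners and SMAD genes 5 of 16 were higher and 1 lower (median 0.34), and in the BMP branch 7 of 27 were higher and 7 lower (median 0.10). For rUUO against UUO the largest stromal changes called were a lower Postn (-2.12, SE 0.33, adjusted p = 0.0029; 122 FPKM in rUUO) and a higher Bmp2, a BMP ligand (2.03, SE 0.35, adjusted p = 0.00537; 0.975 FPKM in UUO and 6.77 FPKM in rUUO).

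In PT cells with UUO, 6 of 12 genes of latency and activation, 6 of 15 receptor partners and SMAD genes, 1 of 4 of the activin branch, 9 of 19 of the BMP branch and 7 of 11 responsive genes were called higher, and none was called lower, in a comparison in which 32.8% of all genes were called and 85% of these were higher. The largest were Cdkn1a, which encodes the cell cycle inhibitor p21, at 4.34 (SE 0.30, adjusted p = 1.45e-07), and Cyr61, a matricellular protein gene, at 3.39 (SE 0.47, adjusted p = 0.00011). For rUUO against UUO, Itgav, the integrin alpha V chain that takes part in releasing latent TGF-beta, was lower (-1.17, SE 0.22, adjusted p = 0.013), as was Twsg1, a BMP modulator (-1.03, SE 0.24, adjusted p = 0.0334). In macrophages 1 of 11 latency and activation genes was higher with UUO and 1 lower, and 2 of 14 BMP branch genes were higher, beside 4.99% of all genes called. They included Mmp14, a membrane metalloproteinase, at 2.02 (SE 0.22, adjusted p = 0.000142), and Gdf15, a stress-induced ligand, at 1.497 (SE 0.40, adjusted p = 0.0441). Mean Gdf15 was 0.0375 FPKM in sham, 2.21 FPKM in UUO and 9.08 FPKM in rUUO, so it passed the filter on low values only through UUO and rUUO. In endothelial cells 2 of 12 latency and activation genes were higher and 1 lower, beside 1.98% of all genes called, and the largest change called was that of Inhbb, another activin subunit gene, at 3.30 (SE 0.36, adjusted p = 0.000162; 2.21 FPKM in sham and 30.1 FPKM in UUO).

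In macrophages with UUO limma called 0 of 15 receptor partners and SMAD genes, 0 of 11 responsive genes and 0 of 3 activin branch genes, beside 4.99% of all genes. At an unadjusted p below 0.05 there were 4, 5 and 0 of these, beside 19.7% of all genes. In endothelial cells with UUO, 1 of 16 receptor partners and SMAD genes, 1 of 6 of the activin branch and 2 of 14 responsive genes were called higher. The BMP branch had 1 of 21 higher and 1 lower there, beside 1.98% of all genes called. Against sham, rUUO stromal cells had 9 of 13 latency and activation genes higher and 1 lower, 8 of 14 responsive genes higher and 1 lower, 5 of 16 receptor partners and SMAD genes higher and 1 lower, 3 of 6 of the activin branch higher, and 7 of 27 of the BMP branch higher and 2 lower. Of all genes 17.2% were called in that comparison. In rUUO PT cells 2 of 12, 5 of 11, 3 of 15, 0 of 4 and 3 of 19 genes of the same lists were higher than in sham, beside 7.46% of all genes called. In rUUO macrophages 1 of 11, 0 of 11, 1 of 15, 0 of 3 and 3 of 14 were higher, beside 3.44%. In rUUO endothelial cells 0 of 12, 2 of 14, 0 of 16, 1 of 6 and 1 of 21 were higher, with 1 of the BMP branch lower, beside 1.77%.

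Between rUUO and UUO no gene of the 5 lists was called by limma in macrophages or endothelial cells. At an unadjusted p below 0.05 there were 8 of 54 and 14 of 69 list entries tested, beside 7.09% and 10.2% of all genes. In PT cells 2 of 12 latency and activation genes and 1 of 19 of the BMP branch were called lower, beside 3.83% of all genes called. In stromal cells 1 of 13 latency and activation genes was higher and 3 lower, 1 of 14 responsive genes was higher and 2 lower, and 2 of 27 of the BMP branch were higher. Of all genes 4.17% were called in that comparison.

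Likeness of pattern was described by Pearson's r of the mean log2(FPKM + 1) over the 12 groups, among 12696 genes with at least 5 FPKM in some group, which share libraries. Inhba was most like Col5a1 and Postn (r = 0.991 for both), Tgfb3 like Cercam (0.984) and Ak5 (0.981), and Tgfb2 like Ptov1 (0.959) and Dnpep (0.950). Tgfb1 was most like Sec14l1 (0.993) and Tmem50a (0.991). Among receptors, Tgfbr1 was most like Apbb1ip and Slfn8 (0.977 for both), Tgfbr2 like Filip1l (0.986) and Akap13 (0.985), and Tgfbr3 like Syde1 (0.987) and Col4a2 (0.984). Smad7 was most like Vangl2 (0.978) and Pdgfd (0.965). Bmp7 and Grem1 did not reach 5 FPKM in any group.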

How the data were processed

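FACS-sorted kidney cells gave RNA that was amplified (Ovation RNA-Seq System V2) for Illumina HiSeq sequencing. The authors deposited 1 table of FPKM values rounded to 2 decimals, in which each value is scaled to transcript length and library size. The submitters' processing notes name FastQC, Bowtie2, RSEM, DESeq2 and mm10, without versions. Counts were not used here, so intervals from depth cannot be given, and the values' relative depth was estimated from short single-exon genes.

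Of 46 value columns, 44 were used. The remaining 2 share 1 name (a CD31+ UUO sample) and were left out, and the third PT sham sample has no column of its own name. The treatment label placed 1 LTL+ sample, titled with both surgeries, in UUO. No paired fit is the main one. Values were tested as log2(FPKM + 1) with limma 3.58.1 (R 4.3.3, trended prior variance) within each population, where the 3 surgeries share the spread, over genes whose mean reached 1 FPKM, with Benjamini-Hochberg adjustment over all these genes and a threshold of 0.05. Sham samples of all populations were compared in 1 fit, and an F test over the interaction of surgery and population used all 44 samples. The fold change on this scale understates the change of low genes. The code was tested on simulated data. The labels name no mouse for a sample. The p-values set each difference against the spread between these samples, which is not known to be the spread between mice.

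The members and gene lists were chosen with earlier results of these data known. In each comparison the pathway genes named are the 2 with the largest called changes, of which 1 is not reported here. Alternatives were another pseudocount (0.1), no filter or a mean of 5 FPKM, rescaling to equal sums (TPM), rescaling without the 37 mitochondrial genes, quantile normalization, no prior trend, 1 fit for all populations, a 1.5-fold threshold, a replicate block and leaving out each sample. Promoters came from RefSeq (GRCm38.p6).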

Additional observations from a re-analysis of the deposited data

Results flagged for a closer look

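Of 67 sets of 4 samples (1 member in 1 group), 2 held a sample farther from the others than Dixon's criterion allows at the 95% level, and chance alone flags about 5% of such sets. Stromal rUUO replicate 2 had 1.87 FPKM of Bmp7, with a gap of 0.848 of the range, on the log2(FPKM + 1) scale, above the other 3 samples. PT UUO replicate 3 had 8.55 FPKM of Tgfbr3, with a gap of 0.833 of the range on that scale.

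The change with surgery differed between the 4 populations for several members (limma F test, Benjamini-Hochberg adjusted p over all genes). For UUO against sham the adjusted p was 0.00856 for Tgfb1, 0.000127 for Tgfb2, 6.37e-05 for Tgfb3, 0.000507 for Inhba, 1.21e-09 for Tgfbr1, 2.94e-07 for Tgfbr2 and 0.0133 for Tgfbr3. For Tgfb2 the change was 1.49 in stromal, 1.45 in PT and -1.77 in endothelial cells, and for Tgfbr1 it was 1.65 in stromal cells and -1.59 in macrophages. For rUUO against sham it was 0.000283 for Tgfb2, 0.0168 for Tgfb3, 0.0257 for Inhba, 4.16e-06 for Tgfbr1 and 6.95e-05 for Tgfbr2. For rUUO against UUO it was 0.03996 for Tgfbr1, whose change was 0.59 in macrophages and -0.24 in stromal cells.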

How the results depend on the processing

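Of the 96 member changes tested, 19 were called, and none of these changed direction under any alternative. The calls of Inhba, Tgfb2, Tgfb3, Tgfbr1 and Tgfbr2 in stromal cells against sham, with UUO and with rUUO, and of Tgfbr1 in macrophages with UUO, held under every alternative and without any 1 sample. The table holds no counts, so the error of low values such as those of Grem1 and of Tgfb2 in PT cells is not known. With 3 or 4 samples in a group a p that misses the threshold does not show that levels were alike. The cause of the shifts below was not tested.

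With a pseudocount of 0.1 the number of members called was 1 for rUUO against sham in PT cells (Tgfb2), and the F test called 0 members between rUUO and UUO and 3 against sham. With no filter 0 were called for UUO against sham in endothelial cells. With a filter at 5 FPKM 1 was called in PT cells and 2 in macrophages for UUO against sham, and 26 differences between sham populations, with fewer members tested. Without mitochondrial genes 2 were called in macrophages for UUO against sham and 0 by the F test for rUUO against UUO. With quantile normalization 1 was called in PT cells (Bmp7, lower) and 2 in macrophages for UUO against sham, and 0 by that F test, and in stromal cells with UUO Bmp7 was no longer called while Grem1 was, at the same count of 6. With 1 fit for all populations 1 was called in endothelial cells for rUUO against sham (Tgfbr2), and Bmp7 was called lower in PT cells with UUO (adjusted p = 0.0314) and in stromal cells with rUUO (0.0236), as was Tgfb1 higher in stromal cells with rUUO (0.0411).

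For same-numbered samples, r of their deviations was -0.077 to 0.162 between populations, with 2 of 57 pairs above 0.1. Both of these were among the 21 sham pairs, namely macrophage and endothelial replicate 4 (0.162) and endothelial and stromal replicate 2 (0.145). Between surgeries r was -0.062 to 0.117, with 1 of 35 above 0.1. No differently numbered pairs were set beside these, so the r cannot show whether same-numbered populations came from 1 mouse. The replicate block is given as a description. With the replicate block 0 members were called for rUUO against sham in macrophages, 0 for UUO against sham in endothelial cells and 0 by the F test for rUUO against UUO, while 3 were called for UUO against sham in PT cells and 5 in stromal cells. The uncalled changes of Tgfb1 between rUUO and UUO in macrophages (0.16) and of Tgfbr1 between UUO and sham in endothelial cells (0.018) turned in sign.

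Leaving out 1 sample at a time, UUO against sham gave 1 to 5 calls in PT cells (1 without sham 1, 2 without sham 4 or UUO 3), 1 to 2 in macrophages (2 without UUO 3), 0 to 2 in endothelial cells (0 without UUO 1, 2 without UUO 4) and 5 to 6 in stromal cells. For rUUO against sham there were 0 in PT cells, 0 to 1 in macrophages (0 without rUUO 4), 0 to 1 in endothelial cells (1 without sham 2) and 5 to 6 in stromal cells, and the comparison of rUUO with UUO gave 0 in the other 3 populations and 0 to 1 in stromal cells (1 without UUO 3). The sham differences numbered 40 to 45. The F tests gave 7 to 8 members for UUO against sham, 4 to 5 for rUUO against sham and 0 to 2 between rUUO and UUO. The last was 2 without macrophage sham 1 or stromal UUO 3. It was 0 without PT UUO 3 or 4 or rUUO 2 or 3, macrophage UUO 1 or 4 or rUUO 1 or 6, endothelial UUO 2 or 4 or rUUO 1 or 2, or stromal UUO 1 or rUUO 1 or 2.

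Other uncalled changes near 0 turned in sign as follows. Rescaling to equal sums (TPM) gave 0.021 for macrophage Tgfb1 between rUUO and UUO and 0.089 for stromal Tgfbr3 with UUO. Leaving out mitochondrial genes gave -0.028 for endothelial Tgfb1 and -0.089 for stromal Smad7 with UUO. Quantile normalization gave, against sham with UUO, -0.078 for PT Tgfbr1 and 0.10 for macrophage Tgfb3, against sham with rUUO -0.006 for PT Tgfbr3, and between rUUO and UUO 0.065 for PT Tgfb2, 0.020 for macrophage Tgfb1, -0.059 for endothelial Smad7 and -0.058 for stromal Bmp7.

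The other uncalled changes that turned in sign did so without single samples. In PT cells they ranged from -0.32 to 0.11 for Bmp7 and -0.15 to 0.10 for Tgfbr1 (rUUO against sham), and from -0.060 to 0.18 for Smad7 and -0.80 to 0.17 for Tgfb2 (rUUO against UUO). In macrophages they ranged from -0.30 to 0.37 for Smad7 and -0.28 to 0.37 for Tgfb3 (UUO against sham), and from -0.35 to 0.091 for Smad7, -0.29 to 0.41 for Inhba and -0.51 to 0.005 for Tgfbr3 (rUUO against sham), and from -0.50 to 0.14 for Smad7 and -0.22 to 0.064 for Tgfb1 (rUUO against UUO). In endothelial cells they ranged from -0.28 to 0.018 for Tgfbr1, -0.036 to 0.17 for Tgfb1 and -0.092 to 0.34 for Tgfb3 (UUO against sham), and from -0.17 to 0.001 for Tgfb1 (rUUO against sham), and from -0.19 to 0.59 for Smad7 and -1.05 to 0.36 for Inhba (rUUO against UUO). In stromal cells they ranged from -0.22 to 0.24 for Tgfbr3, -0.097 to 0.35 for Smad7 and -0.080 to 0.66 for Tgfb1 (UUO against sham), and from -0.030 to 0.42 for Smad7 and -0.42 to 0.049 for Tgfbr3 (rUUO against UUO).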
